A study of Mus musculus with 12 samples.

Results

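The 32 genes described here are markers of reactive astrocytes other than the intermediate filament genes: secreted proteins, surface proteins, enzymes and a few intracellular proteins. They were taken by gene symbol from a count table of 25238 genes in 12 libraries of mouse cortex, and all 32 were found in it. The list has 4 classes: 10 genes of a pan-reactive panel, 4 of a panel induced by inflammation, 11 of a panel induced by ischemia and 7 further markers. The study asked whether the intracellular sigma peptide, ISP, which crosses cell membranes and binds the chondroitin sulfate proteoglycan receptor PTPσ, changes the cortex around an infarct. Stroke mice received vehicle (Veh by the labels, 5% DMSO in saline by the methods, a scrambled peptide by the results text) or ISP at 1 μg/g/day from day 1 after transient occlusion of the middle cerebral artery. Micro-punches 1 mm wide of peri-infarct cortex were taken at day 14, from 4 Veh mice (numbered 2, 6, 8 and 10) and 4 ISP mice (12, 14, 16 and 18), each mouse giving 1 library. Another 4 libraries (19, 21, 36 and 38) are labelled control, with peri-infarct cortex as their tissue too, and no surgery, treatment or day is given for them in the sources used here. The stroke methods describe males of 10 to 12 weeks, either C57BL/6J or of the Nestin-creER-Ai9 line, with 45 min of occlusion, and do not say which of these gave the RNA-seq libraries. The labels name no cohort or batch, so the control label and any difference in cohort cannot be told apart.

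Astrocytes around an infarct become reactive: they enlarge, make more filament protein, and turn on genes for secreted inhibitors of proteases, iron and copper handling proteins, adhesion receptors and lipid mediators. Cytokines of the interleukin 6 family, acting through gp130 and STAT3, are well known drivers of this state, and the reactive cells border the glial scar that holds the proteoglycans PTPσ binds. Many of these genes are not exclusive to astrocytes, since macrophages, fibroblasts and vessel cells transcribe Cd44, Lgals1, Timp1, Thbs1, Anxa2 and Tspo too. In punches of tissue, more cells of a type and more RNA per cell cannot be told apart.

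Total counts per library were 17442711 to 29845629. Values below are CPM (counts scaled to a common library total) after TMM scaling over the 12 libraries. The libraries did not spread evenly. ISP 14 and ISP 18 held the highest summed levels of 14 microglia and macrophage markers, 2042 and 1888 CPM, against 580 and 638 in the other ISP libraries, 498 to 921 in Veh and 375 to 488 in control. Markers of infiltrating and border macrophages summed to 137 and 108 CPM in ISP 14 and ISP 18 and 58.7 in Veh 10, and to 4.37 to 16.4 in the other 9 libraries. Most of the sum in ISP 14 and ISP 18 was Lyz2, at 128 and 100 CPM, with 35.3 in Veh 10. Mrc1 was at 1.11 and 2.30 CPM in ISP 14 and ISP 18 and 8.11 in Veh 10, and F13a1 at 1.23, 1.69 and 7.02. The median log2 fold change of this list for ISP with Veh was -0.82 over 6 tested genes. Fibroblast markers summed to 186 CPM in Veh 10 and to 17.3 to 62.6 elsewhere. Choroid plexus markers summed to 1701 CPM in Veh 6 and 1187 in ISP 18 and to at most 11.3 elsewhere, with Ttr at 0 in 6 libraries. Oligodendrocyte markers summed to 11249 CPM in ISP 18, 4693 to 7300.2 in the other ISP libraries, 2806 to 6987 in Veh and 3285 to 4946 in control. Astrocytes were present in every library, with 12 resting astrocyte markers summing to 4007 to 5837 CPM. Astrocyte filament markers summed to 1509 and 2718 CPM in ISP 14 and ISP 18 and to 364 and 613 in the other ISP libraries. In Veh they summed to 181 to 763 CPM and in control to 84.8 to 97.5. Neutrophil markers reached at most 2.88 CPM and Ly6g was at 0 in all 12. The part of these other cell types in the results below was not tested.

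**Figure D1:**
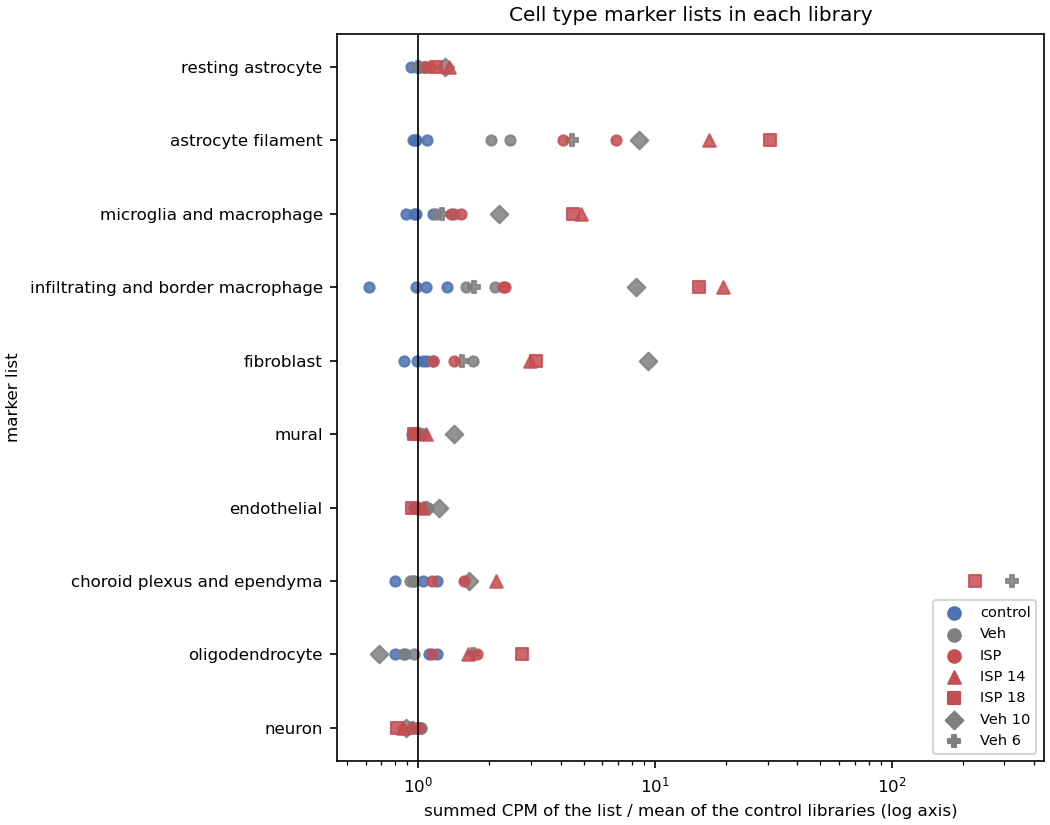
Summed CPM of 10 cell type marker lists in each of the 12 libraries (points), divided by the mean of the 4 control libraries on a log axis, with ISP 14, ISP 18, Veh 10 and Veh 6 given symbols of their own. The points of ISP 14 and ISP 18 lie farthest right for filaments and macrophages, Veh 10 for fibroblasts, and Veh 6 and ISP 18 for choroid plexus.

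Per kilobase of exon, the members differed widely in level in the control libraries. The highest was S100a10, the annexin A2 light chain, at 27.3 CPM per kb. Lgals1, which encodes galectin-1, followed at 14.0 and Serpina3n, a secreted serine protease inhibitor, at 12.2. At the low end, Cd44 stood at 0.107, Steap4 at 0.0479 and Cd109 at 0.00652 CPM per kb. Lcn2 had no read in any control library, and Slc10a6, a transporter of sulfated steroids, had none in any of the 12. In ISP libraries the order changed at the top, where Serpina3n stood highest at 64.0 CPM per kb, ahead of S100a10 at 21.1.

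**Figure D2:**
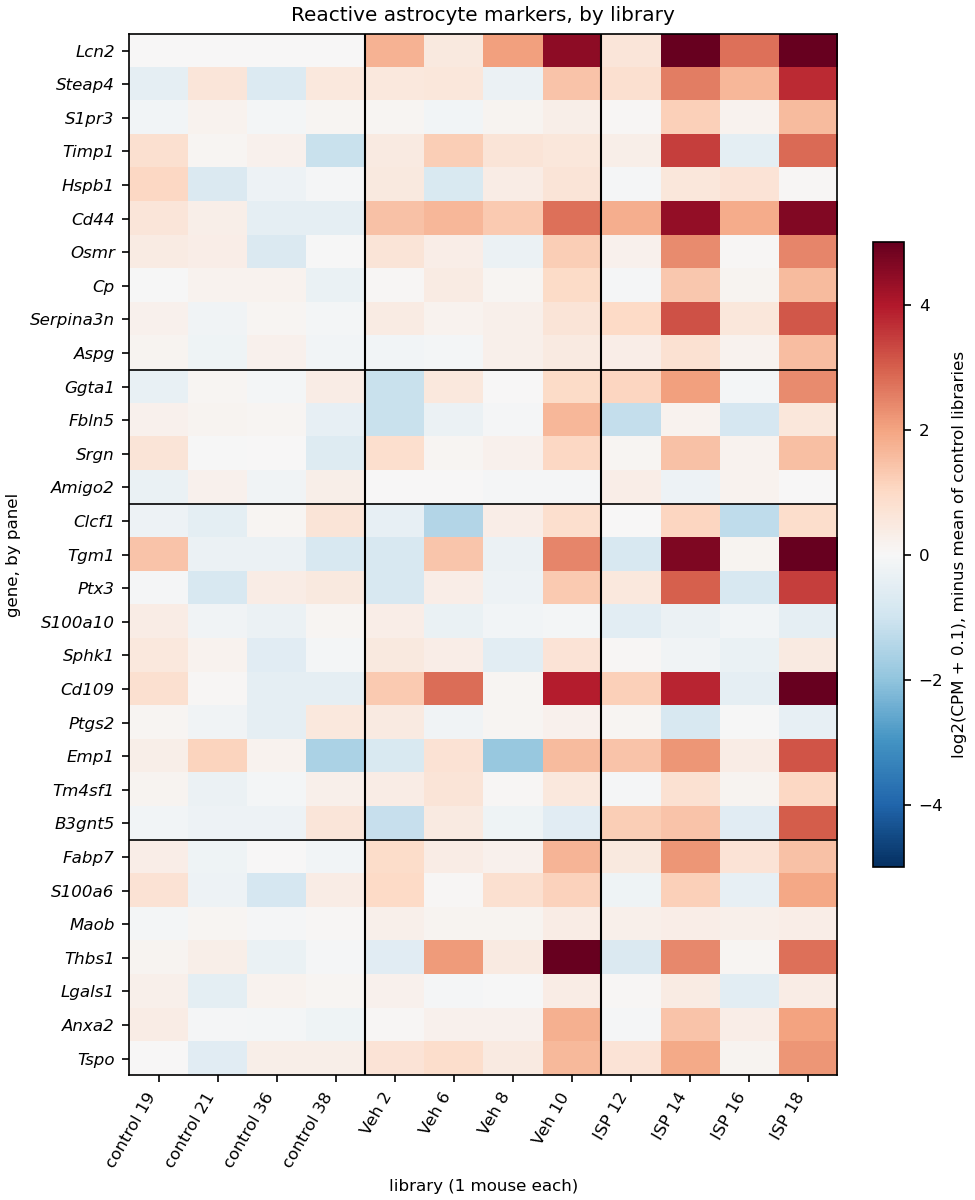
Level of the 31 detected members in each library as log2(CPM + 0.1) minus the mean of the control libraries, with members in rows ordered by panel and libraries in columns, and colour ending at 5 in either direction. The reddest columns are ISP 14 and ISP 18, Veh 10 comes next, and ISP 12 and ISP 16 are paler.

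For 20 of the 31 detected members (64.5%), the 2 highest of the 8 stroke libraries were ISP 14 and ISP 18, as they were for 11.7% of all genes tested between ISP and Veh. ISP 18 was the highest of all 12 libraries for 17 members (54.8%) and ISP 14 for 6 (19.4%), beside 15.3% and 9.68% of all tested genes. The 31 include members too low to be tested, which the shares over all tested genes leave out. Within the Veh group, Veh 10 was highest for 25 of 31 members (80.6%), against 27.0% of all tested genes.

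For ISP with Veh, 28 members passed the filter on low counts, and none was called at an adjusted p under 0.1 by edgeR's quasi-likelihood test, as for the 15214 genes tested as a whole (0% called). At an unadjusted p under 0.05, 8 members were higher with ISP and 1 was lower, where 7.87% of all tested genes were higher and 7.47% lower. DESeq2 called 1 member, Serpina3n, with 2.66% of all genes called, and limma-voom called 0 (0% of all genes). The median fitted log2 fold change of the 28 was 0.44, beside 0.02 over all tested genes. For no member were the 4 ISP values all above or all below the 4 Veh values, which held for 2.82% (higher) and 3.96% (lower) of all genes. The members under the filter were Tgm1, Ptx3, B3gnt5 and Slc10a6, and some that passed, such as Lcn2 and Cd109, did so through the 4 libraries where they were highest. With no filter the median was 0.50. The pan-reactive panel had the largest median, 1.43 over its 10 genes, followed by 0.23 over the 4 inflammation-induced genes, 0.17 over the 7 further markers and 0.13 over 7 ischemia-induced genes. The same medians without ISP 14 and ISP 18 were -0.0391, -0.0999, -0.56 and -0.39. The members under the filter are all of the ischemia-induced panel, and Tgm1, Ptx3 and B3gnt5 were highest in ISP 18. The order of the panel medians may therefore depend on the filter.

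Among the secreted members, Serpina3n is a classic transcript of reactive astrocytes. It stood at 28.8, 22.1, 26.4 and 23.1 CPM in control libraries 19, 21, 36 and 38 and at 33.5, 28.3, 29.4 and 39.4 CPM in Veh 2, 6, 8 and 10. In ISP 12, 14, 16 and 18 it stood at 49.9, 226, 37.1 and 216 CPM. Of the ISP mice, 14 and 18 were several times above every other mouse, 12 was above all Veh mice, and 16 lay below Veh 10. The log2 fold change for ISP with Veh was 2.02 (SE 0.51, adjusted p = 0.261 by edgeR's quasi-likelihood test). With DESeq2 the adjusted p was 0.0772, and without ISP 14 and ISP 18 edgeR gave a log2 fold change of 0.41 (SE 0.16). The counts of Serpina3n are uncertain to the extent that reads are shared with the near-identical genes of its cluster.

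The gene lies on GRCm38 at chr12:104406729-104414329 on the plus strand. The promoters of 4 members are shown because 3 of them changed against control, as given further down, and because Tgm1, like Ggta1, holds a searched motif. Each run is the 250 bases before the start site, 5′ to 3′, from RefSeq on GRCm38.p6, at chr12:104406458-104406707 (plus) for Serpina3n, chr2:102901666-102901915 (minus) for Cd44, chr2:35461450-35461699 (minus) for Ggta1 and chr14:55713493-55713742 (minus) for Tgm1. Capitals mark a motif match.
Serpina3n: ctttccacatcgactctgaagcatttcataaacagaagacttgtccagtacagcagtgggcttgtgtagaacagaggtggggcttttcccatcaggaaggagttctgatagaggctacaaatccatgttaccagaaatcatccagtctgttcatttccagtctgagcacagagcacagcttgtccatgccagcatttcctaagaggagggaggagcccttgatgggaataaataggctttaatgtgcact
Cd44: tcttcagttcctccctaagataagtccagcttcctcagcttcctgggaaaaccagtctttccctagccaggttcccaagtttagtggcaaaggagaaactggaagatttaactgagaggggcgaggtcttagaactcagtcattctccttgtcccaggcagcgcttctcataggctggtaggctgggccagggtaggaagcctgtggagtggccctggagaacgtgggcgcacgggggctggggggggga
Ggta1: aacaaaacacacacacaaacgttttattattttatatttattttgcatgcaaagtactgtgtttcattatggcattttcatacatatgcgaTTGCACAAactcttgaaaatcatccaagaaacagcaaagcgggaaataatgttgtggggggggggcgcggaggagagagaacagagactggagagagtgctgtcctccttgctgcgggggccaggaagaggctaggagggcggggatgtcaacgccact
Tgm1: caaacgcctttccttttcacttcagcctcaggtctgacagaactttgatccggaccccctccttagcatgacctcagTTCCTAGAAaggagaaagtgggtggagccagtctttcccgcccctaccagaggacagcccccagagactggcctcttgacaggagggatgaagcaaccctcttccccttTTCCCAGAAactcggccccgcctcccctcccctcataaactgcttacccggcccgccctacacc

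A promoter was given for 25 of the 32 members. Each motif was searched on both strands of the 250 bases. TTCNNNGAA, the palindrome that STAT factors bind, was found in 4 members (Steap4, Tgm1, Sphk1 and Emp1, 16%) and in 8.13% of the 27025 genes with a promoter. In the Tgm1 window printed above it starts 173 and 64 bases before that start site. Another Tgm1 window, at chr14:55713089-55713338, holds none of the searched motifs. TGANTCA, the AP-1 element, was found in 4 members (Cp, Sphk1, Emp1 and Anxa2), against 7.82% of genes. TTGCNNAA, which resembles C/EBP sites, was found in 6 (Lcn2, Steap4, Cp, Ggta1, Ptx3 and Ptgs2, 24%), against 10.8%, and starts 159 bases before the Ggta1 start site. The NF-κB motif was found in 0 members and 0.414% of genes. These letters are a description of the windows and were not tied to binding.

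Lcn2, which encodes the siderophore-binding lipocalin-2, had 0 counts in all 4 control libraries. It was at 0.237, 0.0401, 0.317 and 2.12 CPM in Veh 2, 6, 8 and 10 and at 0.0515, 15.9, 0.579 and 11.1 CPM in ISP 12, 14, 16 and 18. Only ISP 14 and ISP 18 exceeded Veh 10. The log2 fold change was 3.35 (SE 1.29, adjusted p = 0.282 by edgeR), with a 95% interval of 0.52 to 6.17, and without ISP 14 and ISP 18 it was -1.08. Against a floor of 3 counts per control library, a mean of 0.125 CPM, the mean level was at least 5.42-fold higher in Veh and at least 55.1-fold higher in ISP, which covers counting error only. These bounds rested on few libraries: they were 1.58-fold for Veh without Veh 10 and 2.52-fold for ISP without ISP 14 and ISP 18, and Veh 6 and ISP 12 had 1 count each.

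Timp1, an inhibitor of matrix metalloproteinases, was at 0.412, 4.48, 0.193 and 2.88 CPM in ISP 12, 14, 16 and 18, against 0.475 to 0.882 in Veh and 0.0946 to 0.617 in control. ISP mice 14 and 18 were above all others and the other 2 were below all Veh mice. The log2 fold change was 1.71 (SE 0.79) and turned to -1.0 without those 2 libraries. Timp1 overlaps the neuronal gene Syn1 on the opposite strand, and reads of the 2 cannot be told apart where strand is not kept.

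Cp, which encodes the ferroxidase ceruloplasmin, was at 7.52, 20.4, 8.68 and 23.7 CPM in the 4 ISP libraries, 8.25 to 15.7 in Veh and 6.24 to 9.04 in control. Ptx3, a soluble pattern-recognition pentraxin, was at 1.27 and 1.83 CPM in ISP 14 and ISP 18 and at 0 to 0.33 in the other 10 libraries, too low to be tested. Srgn, the serglycin core protein of blood and endothelial cells, was at 4.53 to 12.1 CPM in ISP and 4.49 to 8.72 in Veh. In all of these the ISP range spanned most of the Veh range.

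For the matrix genes Thbs1 and Fbln5, the highest library was Veh 10 and not ISP 14 or ISP 18. Thbs1, which encodes the synapse-promoting matrix protein thrombospondin-1, was at 0.237, 2.12, 0.59 and 25.1 CPM in Veh 2, 6, 8 and 10, and at 0.206, 2.59, 0.434 and 3.25 CPM in ISP 12, 14, 16 and 18. Veh 10, the library with the most fibroblast transcript, stood alone, and control libraries were at 0.297 to 0.514 CPM. For ISP with Veh this gave a log2 fold change of -2.08 (SE 1.2), which turned to 0.70 without Veh 10. Fbln5, an elastic fiber protein, was likewise highest in Veh 10, at 9.48 CPM, with 1.31 to 2.81 in the other Veh libraries and 1.24 to 4.47 in ISP, and its log2 fold change of -0.57 turned to 0.30 without Veh 10. Lgals1 ranged from 8.68 to 16.7 CPM in ISP and from 11.9 to 15.9 in Veh, with a log2 fold change of 0.00 and a 95% interval of -0.43 to 0.44. Clcf1, a cytokine of the interleukin 6 family, was at 0.386 to 2.34 CPM in ISP and 0.321 to 2.03 in Veh. For Lgals1 and Clcf1, ISP 14 and ISP 18 were the highest stroke libraries.

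Among surface and membrane members, Cd44, a receptor for hyaluronan, was at 1.10, 0.857, 0.467 and 0.473 CPM in control libraries 19, 21, 36 and 38. It stood at 2.08, 2.36, 1.86 and 5.23 CPM in Veh 2, 6, 8 and 10 and at 2.68, 16.5, 2.70 and 19.3 CPM in ISP 12, 14, 16 and 18. Every stroke library was above every control library, while ISP 12 and ISP 16 lay among the Veh mice. ISP differed from Veh by a log2 fold change of 1.84 (SE 0.64, adjusted p = 0.271 by edgeR) and was -0.10 without ISP 14 and ISP 18.

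Osmr, the receptor subunit that binds oncostatin M together with gp130, stood at 2.95, 2.79, 1.32 and 2.18 CPM in control libraries 19, 21, 36 and 38, at 3.5, 2.81, 1.77 and 5.33 CPM in Veh 2, 6, 8 and 10, and at 2.58, 11.9, 2.32 and 12.5 CPM in ISP 12, 14, 16 and 18. Its highest values came from the same ISP mice, Veh 2 and Veh 10 were also above every control library, and the other 4 stroke libraries lay within the control range. The log2 fold change for ISP with Veh was 1.14 (SE 0.56) and -0.45 without them. S1pr3, a receptor for sphingosine 1-phosphate, was at 11.7, 25.8, 12.8 and 34.2 CPM in the 4 ISP libraries, 10.2 to 13.6 in Veh and 10.1 to 12.6 in control. Its log2 fold change was 0.82 (SE 0.30), and 0.02 without ISP 14 and ISP 18.

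Emp1, an epithelial membrane protein, stood at 2.21, 3.86, 1.01 and 7.58 CPM in ISP 12, 14, 16 and 18, at 0.136 to 2.50 in Veh and at 0.189 to 1.76 in control. Steap4, a membrane metalloreductase, was at 0.309, 1.27, 0.627 and 2.98 CPM in the ISP libraries, with 0.0907 to 0.519 in Veh. For both, only part of the ISP mice exceeded the highest Veh mouse, Veh 10. The log2 fold changes were 1.74 for Emp1 (SE 0.76) and 2.26 for Steap4 (SE 0.73), and 0.55 and 0.78 without ISP 14 and ISP 18.

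Cd109, a surface protein that binds transforming growth factor beta, was at 1.81 and 4.87 CPM in ISP 14 and ISP 18 and 1.98 CPM in Veh 10, and at 0 to 0.842 elsewhere. Its log2 fold change of 1.16 (SE 1.15) became -2.89 without the 2 ISP libraries. Tm4sf1, a tetraspanin-like protein also known from vessels, was at 7.16 to 15.5 CPM in ISP and 7.80 to 11.7 in Veh. Amigo2, a neuronal and astrocyte adhesion molecule, varied little between groups, at 6.55 to 6.97 CPM in Veh, 5.71 to 8.55 in ISP and 5.42 to 8.51 in control. Tspo, a protein of the outer mitochondrial membrane imaged as a marker of glial activation, was at 5.05, 11.9, 3.47 and 14.9 CPM in ISP 12, 14, 16 and 18, against 4.35 to 9.81 in Veh and 2.06 to 3.88 in control.

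Among the enzymes, Ggta1, an alpha-galactosyltransferase, stood at 5.20, 10.2, 2.27 and 12.9 CPM in ISP 12, 14, 16 and 18. Veh 2, 6, 8 and 10 were at 1.07, 3.49, 2.45 and 4.76 CPM, and control at 1.82 to 3.17. Here ISP 12 also exceeded every Veh mouse, though narrowly, and ISP 16 lay among them. Its log2 fold change was 1.37 (SE 0.52), and 0.33 without ISP 14 and ISP 18. Tgm1, a protein cross-linking transglutaminase, was at 4.35 and 10.1 CPM in ISP 14 and ISP 18, 0.849 CPM in Veh 10 and 0 to 0.377 in the other 9 libraries, and was not tested. B3gnt5, a glycosyltransferase of glycolipid synthesis, reached 1.69 CPM in ISP 18 and was at 0 to 0.493 elsewhere.

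The remaining enzymes had smaller fitted differences, in both directions. Aspg, an asparaginase, was at 4.39 to 11.5 CPM in ISP and 3.56 to 5.42 in Veh, a log2 fold change of 0.68 (SE 0.31), which was 0.31 without ISP 18 and 0.12 without ISP 14 and ISP 18. Maob, the astrocyte monoamine oxidase, was at 22.0 to 23.2 CPM in ISP and 20.3 to 23.7 in Veh, and its log2 fold change of 0.06 had a 95% interval of -0.14 to 0.26. Ptgs2, the inducible cyclooxygenase that neurons also transcribe, was at 5.15, 2.71, 4.73 and 3.55 CPM in ISP 12, 14, 16 and 18 and at 4.25 to 6.53 in Veh. The libraries highest for most members, ISP 14 and ISP 18, were the lowest of the stroke libraries for Ptgs2, and its log2 fold change was -0.42 (95% interval -0.96 to 0.13), and -0.12 without them. Sphk1, which makes sphingosine 1-phosphate, was at 2.46 to 4.30 CPM in ISP and 2.13 to 5.04 in Veh.

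The intracellular members were S100a10, S100a6, Anxa2, Fabp7 and Hspb1. S100a10 was the member at an unadjusted p under 0.05 that was lower with ISP, at 22.8, 26.3, 29.2 and 24.1 CPM in ISP 12, 14, 16 and 18 and 40.8, 25.8, 29.8 and 30.3 CPM in Veh 2, 6, 8 and 10. The groups overlapped, and its log2 fold change was -0.31 (SE 0.14), close to the -0.28 found without ISP 14 and ISP 18. Without Veh 2, its highest Veh library, it was -0.17. Anxa2, the membrane-binding partner of S100a10, instead stood at 11.7 and 17.4 CPM in ISP 14 and ISP 18, 14.9 in Veh 10 and 3.64 to 5.52 in the other 9 libraries. Fabp7, the brain fatty acid-binding protein of radial glia and astrocytes, was at 12.7, 42.2, 14.8 and 24.8 CPM in ISP 12, 14, 16 and 18 and at 17.3, 11.7, 10.4 and 29.3 CPM in Veh 2, 6, 8 and 10. S100a6, a calcium-binding protein, was at 6.80, 18.4, 5.93 and 30.9 CPM in ISP 12, 14, 16 and 18 and at 8.21 to 17.6 in Veh, so that 2 ISP mice lay above the Veh range and the other 2 below it. Hspb1, the small heat shock protein HSP27, was at 6.18 to 10.3 CPM in ISP and 3.77 to 10.2 in Veh, with a 95% interval of -0.56 to 0.71 for the log2 fold change.

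**Figure D3:**
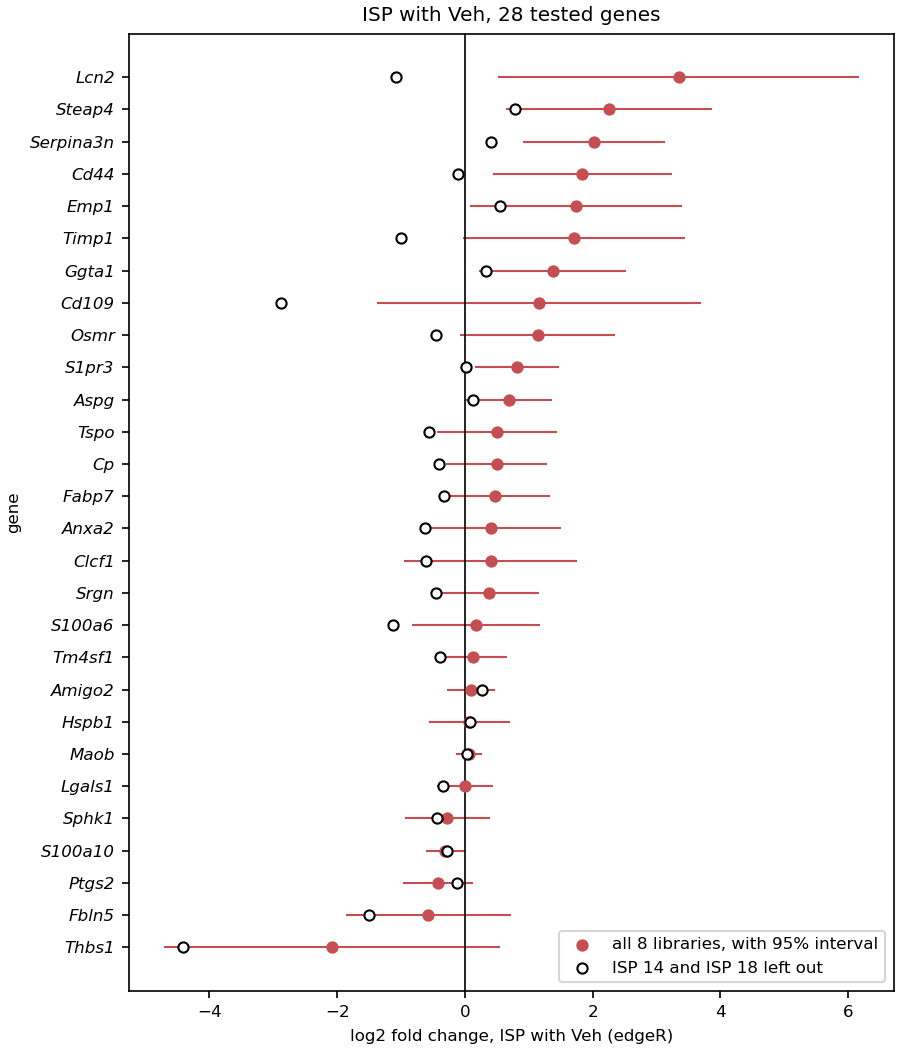
Log2 fold change for ISP with Veh of the 28 tested members (filled points, edgeR) with 95% intervals (lines), and the value without ISP 14 and ISP 18 (open points). Most filled points lie right of 0, with a median of 0.44, and most open points lie left of 0, with a median of -0.36.

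Without ISP 14 and ISP 18, the members' median for ISP with Veh was -0.36 and 0 members were called by edgeR (0% of 15493 genes). DESeq2 without them called 1 member, S100a6, lower with ISP (0.11% of all genes called), at a log2 fold change of -1.13 in the edgeR fit of the same libraries. Leaving out Veh 10 too gave a median of -0.14. With all 4 ISP libraries, leaving out Veh 10 alone raised the median to 0.80, and leaving out ISP 18 alone lowered it to 0.15. Without Veh 6 and ISP 18, the libraries with choroid plexus transcript, the median was 0.08. The direction of the members' median for ISP with Veh thus turned when ISP 14 and ISP 18 were both left out. They were the highest stroke libraries for most members, so a fall of the median without them follows from that order. No other pair of ISP libraries was left out, and the values without them are a description only.

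For Veh with control, Cd44 rose, and the other tested members did not pass. Of 25 tested members 1 was called higher and 0 lower by edgeR, where 1.03% of 15126 tested genes were called higher and 1.2% lower. Cd44 was 2.88 ± 1.58 CPM (SD, n = 4) in Veh and 0.724 ± 0.309 CPM (SD, n = 4) in control, a log2 fold change of 1.98. The adjusted p was 0.0746 by edgeR and 0.00162 by DESeq2. The call by edgeR was lost when control 21, 36 or 38, Veh 2 or Veh 10 was left out, with adjusted p of up to 0.196, and the log2 fold change stayed at 1.52 or above. Lcn2, Steap4 and Cd109 were also under the filter here. DESeq2 called 4 members, Cd44, Serpina3n, Fabp7 and Tspo, with 7.49% of all genes called.

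At an unadjusted p under 0.05, 8 members were higher in Veh than control and 0 lower, where 8.1% of all genes were higher and 8.24% lower. The median log2 fold change was 0.39 over the members and 0.02 over all tested genes, and 0.14 over the members without Veh 10. Among tested members, Cd44, Maob and Tspo had every Veh value above every control value, which held for 4.2% of all tested genes. Serpina3n had a log2 fold change of 0.39 (SE 0.13), Fabp7 0.92 (SE 0.28), Tspo 0.97 (SE 0.29) and Maob 0.23 (SE 0.10), and without Veh 10 Fabp7 was at 0.52 and Tspo at 0.66. Thbs1 had the largest, 4.10 (SE 1.15), which was 1.30 without Veh 10. S1pr3, Amigo2, Lgals1 and S100a10 had values of 0.11, -0.03, 0.11 and -0.06, each with an interval across 0.

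For ISP with control, 8 of 24 tested members rose and 0 fell by edgeR (33.3%), where 6.74% of 15232 tested genes were called higher and 3.42% lower. They were the surface proteins Cd44, S1pr3, Osmr and Emp1, the secreted Serpina3n, the enzyme Ggta1, and Fabp7 and Tspo. Timp1 joined the members under the filter. The median log2 fold change of the members was 0.88, beside -0.01 over all tested genes. DESeq2 called 14 members, with 14.7% of all genes called. Without ISP 14 and ISP 18, edgeR called 1 member, Serpina3n, with 0.581% of all genes called, DESeq2 called 2, Cd44 and Serpina3n (1.88% of all genes), and the median was 0.13.

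Cd44 had the largest change among these 8, at 10.3 ± 8.85 CPM (SD, n = 4) in ISP. Its log2 fold change was 3.81 (SE 0.67, adjusted p = 0.0205 by edgeR), and 1.87 without ISP 14 and ISP 18. Serpina3n was at 132 ± 103 CPM (SD, n = 4) in ISP and 25.1 ± 3.06 CPM (SD, n = 4) in control, a log2 fold change of 2.40 (SE 0.50, adjusted p = 0.0275 by edgeR). Without ISP 14 and ISP 18 its log2 fold change was 0.79 (SE 0.15, adjusted p = 0.0633 by edgeR). These 2 were called with each single library left out in turn, and Fabp7, at 1.37 (SE 0.32), with each but control 38. Fabp7 was at 0.58 and not called by edgeR without both ISP 14 and ISP 18. The remaining 5 were lost when ISP 14 or ISP 18 was left out, and also without control 19, 36 or 38, and Osmr, S1pr3 and Tspo without control 21 as well.

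Those 5 had log2 fold changes of 1.95 for Emp1, 1.67 for Osmr, 1.65 for Ggta1, 1.46 for Tspo and 0.92 for S1pr3. Without both ISP 14 and ISP 18 the values were 0.76, 0.08, 0.61, 0.40 and 0.13. Cd44, Serpina3n, Fabp7 and Maob had every ISP value above every control value among tested members, which held for 7.14% of all tested genes. S100a10 had a log2 fold change of -0.38 (SE 0.15) and was not called. In the same libraries the microglia and macrophage list had 13 of 14 markers called higher, the resting astrocyte list 6 of 12, the oligodendrocyte list 5 of 7 and the fibroblast list 3 of 7. These were 4, 2, 0 and 0 without ISP 14 and ISP 18. The astrocyte filament list had 2 of 4, Gfap and Vim, and the infiltrating and border macrophage list 1 of 4, Lyz2, both with and without those libraries. The choroid plexus list had 1 of 1 tested and 0 without them. In the endothelial, mural and neuron lists 0 were called either way. Over all tested genes 6.74% were called higher, and 0.458% without those libraries. Their part in the members' calls was not tested.

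**Figure D4:**
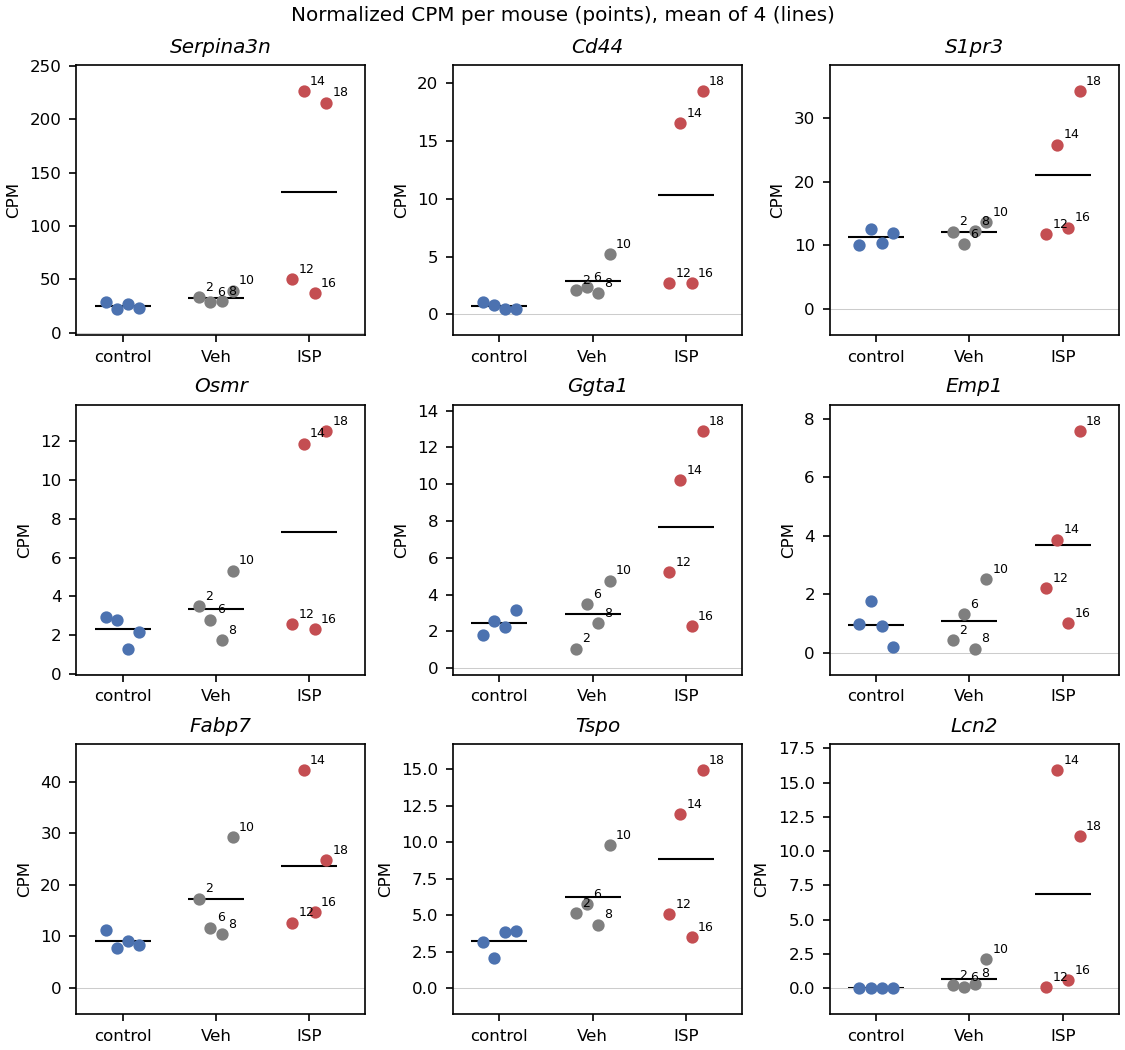
CPM of the 8 members called for ISP with control, and of Lcn2, in each mouse (points, with the mouse number for Veh and ISP), and the mean of 4 (lines). Both ISP 14 and ISP 18 carry the ISP mean in each panel but Fabp7, and ISP 12 and ISP 16 lie near or among the Veh points. For Fabp7, ISP 18 is at 24.8 CPM, near the ISP mean of 23.6 and below Veh 10 at 29.3.

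**Figure D5:**
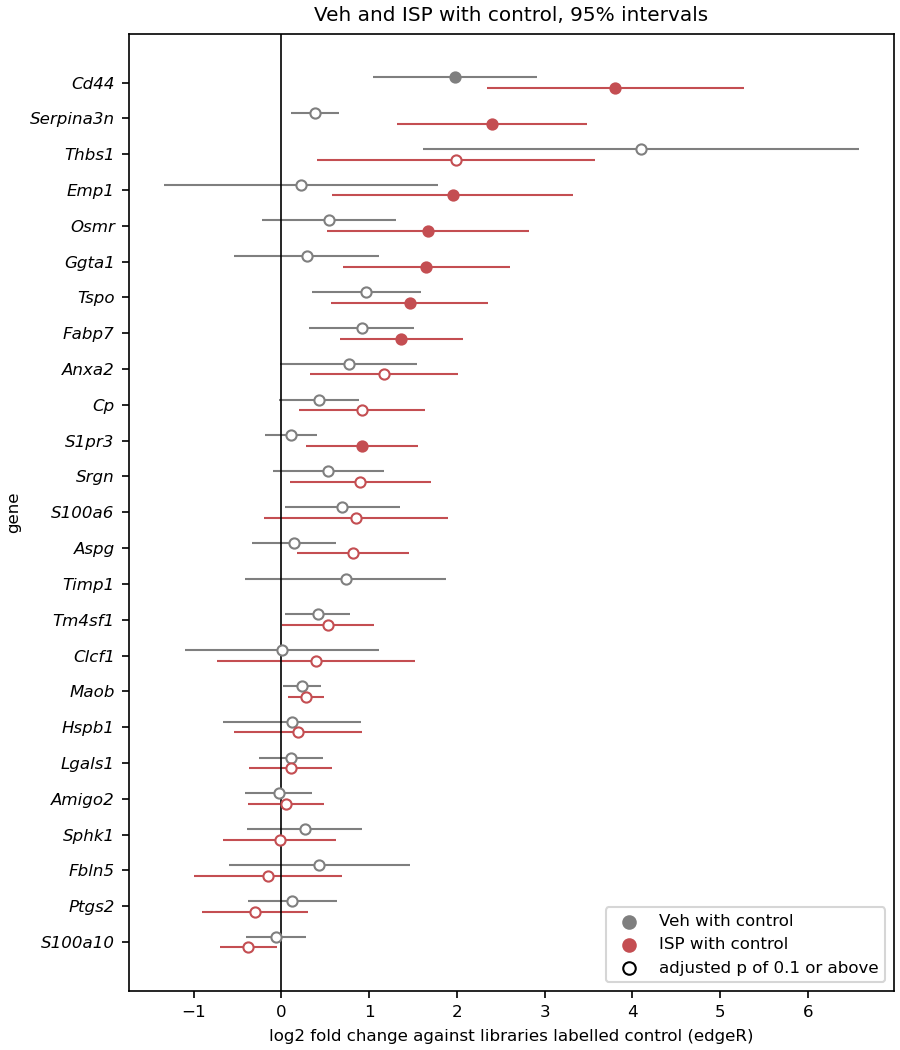
Log2 fold changes with 95% intervals for Veh with control and ISP with control, with filled points called at an adjusted p under 0.1 by edgeR. Cd44 is filled for both, and 7 further members are filled for ISP alone; the difference between the comparisons is the ISP with Veh contrast, in which no member was called.

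Both sets of fold changes use the same control libraries, so their likeness is not independent. Side by side, Cd44 was at 1.98 for Veh and 3.81 for ISP, Serpina3n at 0.39 and 2.40, and Osmr at 0.54 and 1.67. The difference between them was tested as ISP with Veh, where none of the 3 was called by edgeR.

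The pathways around the members were read from lists. Over all tested genes, edgeR called 1.03% higher and 1.2% lower for Veh with control, and 6.74% higher and 3.42% lower for ISP with control. For ISP with control without ISP 14 and ISP 18, edgeR called 2 genes of these 5 lists, Ptgds and Cxcl10, so the other rises and falls given here for ISP with control were not called without those libraries. Of the gp130 and STAT3 list, which holds the partners of Osmr and Clcf1, 0 of 13 tested genes were called for Veh with control, and 3 rose and 1 fell of 15 for ISP with control. Socs3, the feedback inhibitor of this pathway, had a log2 fold change of 1.28 for ISP with control (adjusted p = 0.0854 by edgeR) and of 0.47 for ISP with Veh, which were 0.49 and -0.33 without ISP 14 and ISP 18. Lifr, a receptor subunit that also pairs with gp130, fell by 0.40 on the log2 scale for ISP with control (adjusted p = 0.0368 by edgeR), and was at -0.41 without them. Ctf1, a cytokine of the family, had 1.12 and Pias3, an inhibitor of STAT3, 0.10, and neither was called.

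In the sphingosine 1-phosphate list, the setting of S1pr3 and Sphk1, 0 of 10 tested genes were called for Veh with control and 2 rose for ISP with control. These included S1pr1, the main receptor of the family, at 0.25, and Sgpl1, the lyase that degrades the lipid, at 0.66 (adjusted p = 0.0784 and 0.0817 by edgeR). Both were lower without ISP 14 and ISP 18, at 0.23 and 0.15. Sgpp2 and Sphk2 had -0.04 and 0.11.

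In the prostaglandin list, the setting of Ptgs2, 1 of 12 tested genes rose for Veh with control and 5 rose and 1 fell for ISP with control. Ptgds, the prostaglandin D synthase of meninges and glia, rose for Veh with control (1.27, adjusted p = 0.0717 by edgeR) and for ISP with control (0.89, adjusted p = 0.0186 by edgeR). It was highest in Veh 10, at 714 CPM, and was at 0.90 for Veh with control without Veh 10 and 0.81 for ISP with control without ISP 14 and ISP 18. Tbxas1, the thromboxane synthase of macrophages, Ptges and Ptgs1 rose for ISP with control, by 2.06, 0.88 and 0.58, and were at 0.75, 0.70 and 0.38 without ISP 14 and ISP 18, whereas Ptgs2 itself had -0.30 and was not called.

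Among 18 partners of the secreted and surface members, 0 of 16 tested were called for Veh with control and 7 of 15 rose for ISP with control. Mmp14, a membrane metalloproteinase, rose by 0.74, Itgb1, an integrin subunit, by 0.63 and Tgfb1 by 1.26. These were at 0.26, 0.40 and 0.35 without ISP 14 and ISP 18. Anxa1 was tested for Veh with control only among the comparisons with control, at 1.78 and not called. Of 9 other genes of the reactive astrocyte panels, 4 rose for Veh with control and 7 for ISP with control. Cxcl10, an interferon-induced chemokine, was among both, at 0.00857 CPM on average in control, 0.958 ± 0.874 CPM (SD, n = 4) in Veh and 7.88 ± 9.31 CPM (SD, n = 4) in ISP. Cd14, Serping1 and H2-D1 rose by 1.27, 2.05 and 0.85 for Veh with control and by 2.22, 2.46 and 2.19 for ISP with control. For Veh with control they were at 1.05, 1.20 and 0.55 without Veh 10 and none was called by edgeR. For ISP with control they were at 1.44, 0.57 and 0.67 without ISP 14 and ISP 18. For ISP with Veh, no gene of these 5 lists was called by edgeR. At an unadjusted p under 0.05, 3 of 13, 2 of 10, 1 of 12, 2 of 16 and 5 of 9 were higher in the order given, beside 7.87% of all tested genes. In the prostaglandin list 1 gene was lower at that p, beside 7.47% of all tested genes.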

How the data were processed

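RNA was sequenced from 12 libraries of mouse cortex, 1 per mouse. The authors aligned reads to mm10 with HISAT2, summed them over GENCODE genes by HTSeq's defaults and used DESeq2 (no version is given in the sources used here). Each deposited value is a raw count for 1 gene symbol and library. HTSeq's default counts by strand and drops reads with several alignments, and the kit's strand marking is not given, so reads of overlapping antisense genes, found for 15 of 32 members, may not be separated. edgeR 4.0.16 (R 4.3.3) was fitted to the 8 libraries of each comparison: filterByExpr by group, TMM, then glmQLFit and glmQLFTest. Genes with a Benjamini-Hochberg adjusted p under 0.1 were called. The script was tested on simulated data with 200 changed genes per comparison. Among unchanged genes, edgeR called 14 to 19 and DESeq2 35 to 56 by comparison. For ISP with Veh, DESeq2 also called more of the genes changed by a log2 fold change of 0.5, 61.2% against 47.8%. Alternatives were DESeq2 1.42.0, limma-voom (3.58.1) with quality weights, other filters, scaling and thresholds, all 12 libraries in 1 fit, and libraries left out. Intervals are 95%. Exon lengths and positions are GENCODE M21 on GRCm38, and promoters are RefSeq GRCm38.p6. All 32 members are named, with up to 4 genes of each pathway list, by smallest p for Veh with control. The members and lists were chosen with earlier results of these data known. Mice were taken as separate animals from their labels.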

Additional observations from a re-analysis of the deposited data

Results flagged for a closer look

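In 6 of 92 sets of 4 libraries (a member in a group), 1 library stood apart from the other 3 by more than Dixon's 95% critical value, where chance flags about 1 in 20 sets. Veh 10 accounted for 4 of them, with Lcn2 at 2.12 CPM (next 0.317), Cd44 at 5.23 (next 2.36), Thbs1 at 25.1 (next 2.12) and Anxa2 at 14.9 (next 4.94). Tgm1 stood apart in control 19 at 0.377 CPM (next 0.0429), and B3gnt5 in control 38 at 0.237 CPM (next 0.103). ISP 14 and ISP 18, which differ from the rest together, cannot be picked out by this rule.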

How the results depend on the processing

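No paired analysis was possible because the groups share no replicate numbers. For ISP with Veh, members called were 1 with DESeq2, with all libraries (Serpina3n) or without ISP 14 and ISP 18 (S100a6), and 0 under every other alternative run. The median was -0.36 without ISP 14 and ISP 18, -0.37 with DESeq2 and -0.14 without Veh 10 too, and above 0 under the others. Leaving those 2 out turned the log2 fold change to -0.62 for Anxa2, -2.89 for Cd109, -0.10 for Cd44, -0.61 for Clcf1, -0.41 for Cp, -0.32 for Fabp7, -1.08 for Lcn2, -0.34 for Lgals1, -0.45 for Osmr, -1.13 for S100a6, -0.46 for Srgn, -1.0 for Timp1, -0.39 for Tm4sf1 and -0.56 for Tspo. Lgals1 was at -0.00338 with DESeq2 size factors and -0.00333 with DESeq2, and S100a6 at -0.074 with limma-voom. Leaving out single libraries gave -0.0371 to 1.03 for Anxa2, -0.18 to 2.16 for Cd109, -0.94 to 0.30 for Fbln5, -0.17 to 0.22 for Hspb1, -0.11 to 0.17 for Lgals1, -0.42 to 0.44 for S100a6, -2.66 to 0.70 for Thbs1 and -0.0928 to 0.28 for Tm4sf1.

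For Veh with control, members called were 3 without a filter (Cd44, Lcn2, Thbs1; 2.57% of all genes called), 4 with DESeq2 (7.49%), 0 with all 12 libraries in 1 fit (0.18%), 0 at an adjusted p of 0.05, and 0 to 3 with single libraries left out (0% to 3.02% of all genes, with 3 members and 2.63% without Veh 6). Clcf1 was at -0.00325 with DESeq2 size factors, -0.00256 without a filter, -0.00517 with DESeq2, -0.33 with limma-voom and -0.00732 with all 12 libraries, and Emp1 at -0.13 with limma-voom. Leaving out single libraries gave -0.14 to 0.0745 for Amigo2, -0.46 to 0.32 for Clcf1, -0.56 to 0.68 for Emp1, -0.45 to 0.70 for Fbln5, -0.0375 to 0.55 for Ggta1, -0.0861 to 0.60 for Hspb1, -0.0325 to 0.19 for Lgals1, -0.0116 to 0.32 for Ptgs2 and -0.21 to 0.078 for S100a10.

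For ISP with control, members called were 13 without a filter (8.23% of all genes called), 14 with DESeq2 (14.7%), 5 with limma-voom (10.6%), 13 with all 12 libraries (11.6%), 3 at an adjusted p of 0.05, 1 without ISP 14 and ISP 18 (2 with DESeq2), and 3 to 16 with single libraries left out, with 3 without control 38 (3.14% of all genes), ISP 14 (2.73%) or ISP 18 (3.35%) and 16 without ISP 12 (10.1%). The median was 0.13 without ISP 14 and ISP 18 (0.12 with DESeq2), and 0.51 to 1.11 with single libraries left out. Without ISP 14 and ISP 18, Clcf1 was at -0.62, Lgals1 at -0.24 and S100a6 at -0.44, and Sphk1 was at 0.0737 with limma-voom. Leaving out single libraries gave -0.0617 to 0.16 for Amigo2, -0.53 to 0.077 for Fbln5, -0.0237 to 0.66 for Hspb1, -0.0366 to 0.26 for Lgals1 and -0.20 to 0.18 for Sphk1. No member that turned in a comparison was called there by edgeR in the fits named, and the cause was not tested. Leaving out Veh 6 with ISP 18, leaving out Veh 10 with ISP 14 and ISP 18, DESeq2 without ISP 14 and ISP 18, and the panel medians, list counts and Lcn2 bounds with libraries left out were chosen after seeing the data. ISP 14 and ISP 18 themselves were singled out by their levels in these data, not by a label. Low counts kept Ptx3, B3gnt5 and Slc10a6 out of every filtered fit. Tgm1, which had 299 and 106 counts in ISP 18 and ISP 14 and at most 18 elsewhere, passed the filter for ISP with Veh when Veh 2, 6 or 8 or ISP 12 or 16 was left out, at 3.13 to 3.90 and not called by edgeR.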
